A study of Mus musculus with 6 samples.

Results

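Sertoli cells, the somatic cells that line the seminiferous tubule and nurse the germ cells, are recognised by a small set of genes. The 8 genes described here are Sox9, Cst12, Defb19, Trf, Gdnf, Aard, Slc2a3 and Vim. They were taken by gene symbol from the authors' deposited table, which holds probe sets with a difference of at least 4-fold, and all 11 probe sets carrying these symbols were used, of 3198 in that table and 45037 tested on the arrays. Because that table was selected on the same contrast, the differences of these probe sets between the groups are descriptions, and no test of them supports anything. Vim, at 4.22-fold, and Sox9, at 4.39-fold, lay closest to the 4-fold limit in the authors' deposited table. No member is known here just outside it, since probe sets under 4-fold are not named in the files. Other probe sets of these genes may lie under 4-fold in either direction. Statements on all probe sets of a gene cover only those listed.

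RNA was measured on 6 Affymetrix arrays, 3 for aggregated primary Sertoli cells and 3 for aggregates of the MSC-1 line. The primary cells came from mice of the cross C57BL/6 x 129, aged 10 to 20 days by the growth protocol and 19 to 20 days by the series design, a difference that was not settled. MSC-1 is a Sertoli cell line from a tumour driven by the SV40 large T antigen under the promoter of the anti-Müllerian hormone gene. Both kinds of cells were left untreated and aggregated for 48 h in Ham's F10 medium with supplements and 10% serum. The labels do not say whether replicates came from different cultures or animals, so the errors rest only on the spread between these samples, which may be technical.

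In Sertoli cells the transcription factor SOX9 takes part in the testis programme, and the mature cell feeds the germ cells through secreted proteins. Transferrin carries iron to germ cells behind the blood-testis barrier, GDNF keeps spermatogonial stem cells dividing, and cystatin-type and defensin-type proteins are released into the tubule. Glucose transporters bring in the sugar that Sertoli cells turn into lactate for germ cells, and vimentin filaments anchor the nucleus and reach to the junctions with germ cells.

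The upstream sequences of the 3 genes with a window in the RefSeq promoter table are shown. Of these, Cst12 was higher in primary cells, and Gdnf and Vim were higher in MSC-1 cells. They are the 250 bases before the gene start from RefSeq, assembly GRCm38.p6, all on the plus strand, at chr2:148789115-148789364 for Cst12, chr15:7809798-7810047 for the first of the 2 starts of Gdnf and chr2:13574061-13574310 for Vim. Capitals mark the letters TATAAA.
Cst12 upstream window: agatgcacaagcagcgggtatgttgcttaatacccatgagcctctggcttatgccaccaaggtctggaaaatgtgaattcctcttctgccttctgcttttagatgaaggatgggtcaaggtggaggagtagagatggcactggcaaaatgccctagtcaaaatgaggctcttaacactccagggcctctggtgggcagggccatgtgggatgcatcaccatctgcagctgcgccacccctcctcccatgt
Gdnf upstream window: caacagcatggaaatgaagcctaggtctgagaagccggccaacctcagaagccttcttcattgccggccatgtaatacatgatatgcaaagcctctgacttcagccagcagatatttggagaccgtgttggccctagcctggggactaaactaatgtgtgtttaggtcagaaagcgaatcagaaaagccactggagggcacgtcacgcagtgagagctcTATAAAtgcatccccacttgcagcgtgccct
Vim upstream window: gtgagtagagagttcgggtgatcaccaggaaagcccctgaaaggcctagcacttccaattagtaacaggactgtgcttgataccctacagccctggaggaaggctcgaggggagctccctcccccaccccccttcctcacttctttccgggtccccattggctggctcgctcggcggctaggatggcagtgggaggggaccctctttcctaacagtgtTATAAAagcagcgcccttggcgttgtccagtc
TATAAA began at position -31 from the first Gdnf start and at position -32 from the Vim start, and the Cst12 window lacked these letters on either strand. Of 32851 windows of the same length, from 250 bases before to 50 after a gene start, 13.6% held TATAAA on either strand. The other motifs searched on both strands were AACAAT, known for SOX factors, AGATAA for GATA factors, the E-box CACGTG, the cyclic AMP element TGACGTCA and the GC box GGGCGG. Their shares over all windows were 10.7%, 11.2%, 7.15%, 1.79% and 35.7%, and no motif overlapped another in the member windows. The second Gdnf window held AGATAA at position -84, and none of these 5 motifs was found in the other 3 member windows. The promoter table matched 3 of the 8 genes.

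The numerator of the authors' folds is not named in their table, and the values per array settled it. For all 3198 probe sets of the authors' deposited table, the sign of the fold was that of the mean primary intensity minus the mean MSC-1 intensity, so a positive fold stands for the primary cells being higher. Array intensities are in arbitrary units, and the median over all probe sets lay between 23.0 and 29.8 per array. Correlations of log2 intensities between arrays were 0.965 to 0.989 within a group and 0.816 to 0.828 between groups. With 3 arrays in each group, the number of arrays limits the precision.

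The 8 genes divided into 5 that were higher in primary Sertoli cells, Sox9, Cst12, Defb19, Aard and Slc2a3, and 3 that were higher in MSC-1 cells, Trf, Gdnf and Vim. The arrays of the 2 groups did not overlap for any of the 11 probe sets. The groups did not overlap for 51.2% of all 45037 probe sets either, 24.1% with every primary array higher and 27.1% with every MSC-1 array higher. All 11 member probe sets also passed an adjusted p of 0.05 in limma's moderated test, a threshold passed by 19.3% of all probe sets as higher in primary cells and by 21.6% as higher in the line. Since the genes were taken from a list of large differences, nothing is read from these counts. In RNA from whole aggregates, fewer cells of a type and less RNA per cell cannot be told apart.

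**Figure D1:**
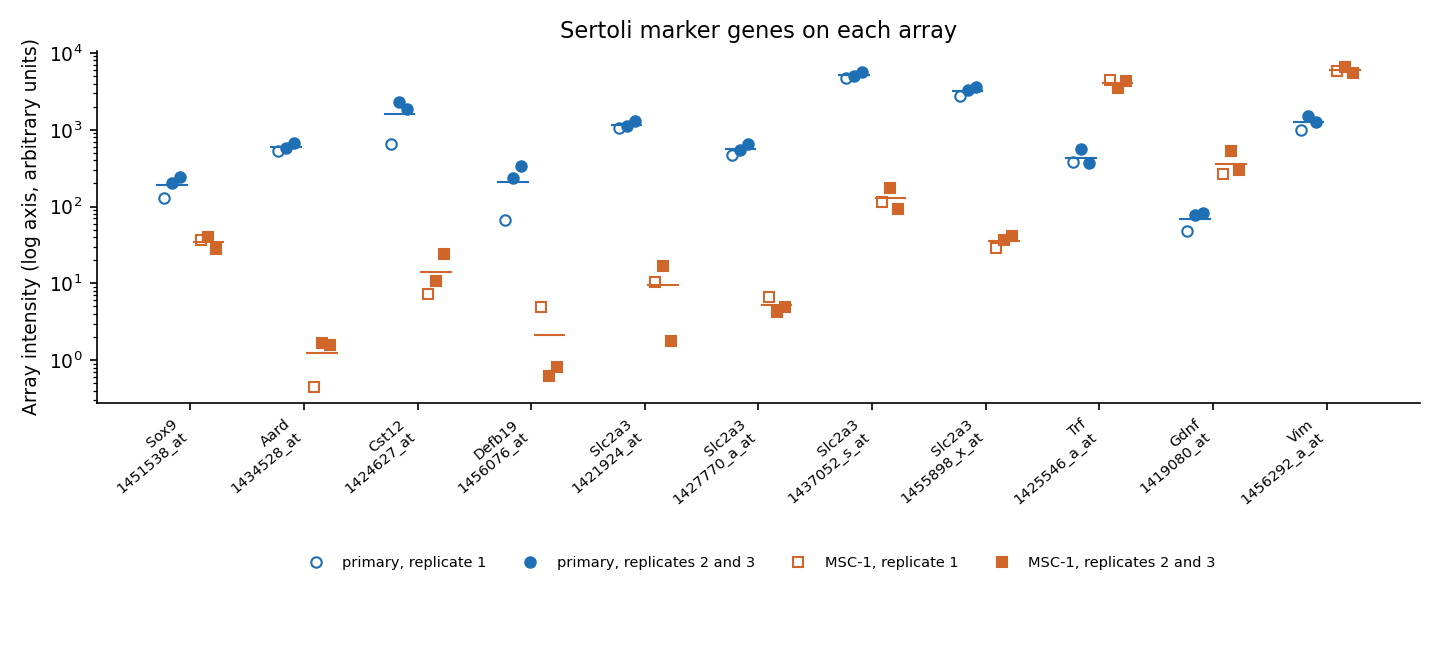
Intensity of each of the 11 probe sets (log axis, arbitrary units) on the 3 primary arrays (circles) and the 3 MSC-1 arrays (squares), with open symbols for replicate 1 of each group and a line at each group's mean. The groups are apart for every probe set, Trf, Gdnf and Vim are the genes with MSC-1 above primary, and replicate 1 is the lowest primary sample for all but Trf.

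Sox9, a transcription factor of Sertoli cell fate, was lower in the line but still above the array median there. Its intensity was 131, 204 and 244 on the primary arrays and 36.4, 39.7 and 28.1 on the MSC-1 arrays. Every MSC-1 value lay above the median of its own array, which was 23.0, 24.3 and 24.7 in turn. The lowest primary value was 3.30 times the highest MSC-1 value. The difference on the log2(intensity + 16) scale, used for all log2 differences here, was 2.01 (SE 0.22, n = 3 per group), and the authors' deposited table gives 4.39-fold. With 64 added instead of 16 the log2 difference was 1.36. Each SE of a log2 difference is from limma's moderated fit, which pools both groups and draws also on the spread of all probe sets.

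Cst12, a cystatin-type gene of the Sertoli cell, was bright in primary cells and dim in the line. Its intensity was 661, 2318 and 1891 on the primary arrays and 7.32, 10.6 and 23.9 on the MSC-1 arrays. All 3 MSC-1 values were below the median of their array, and the primary values spread by a factor of 3.51 with replicate 1 far below the others. The log2 difference was 5.63 (SE 0.43, n = 3 per group), and the authors' deposited table gives 103.0-fold.

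Defb19, a beta-defensin gene of the testis, was likewise higher in primary cells and dim in the line. Its values were 67.5, 234 and 334 on the primary arrays and 4.90, 0.628 and 0.816 on the MSC-1 arrays. The primary samples spread by a factor of 4.95, the widest of the 11 probe sets, again with replicate 1 lowest. The log2 difference was 3.43 (SE 0.47, n = 3 per group), it was 4.04 without primary replicate 1, and the authors' deposited table gives 19.5-fold.

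Aard, named for its alanine and arginine rich domain, was even across primary samples and dim in the line. Its intensity was 531, 578 and 675 on the primary arrays and 0.454, 1.65 and 1.58 on the MSC-1 arrays. The primary values lay within a factor of 1.27, and all 3 MSC-1 values were below the median of their array. The log2 difference was 5.14 (SE 0.15, n = 3 per group), and the authors' deposited table gives 82.4-fold.

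Slc2a3 encodes GLUT3, a high-affinity glucose transporter that germ cells also carry. All 4 of its listed probe sets were higher in primary cells. The probe set with the highest mean level, 1437052_s_at, read 4665, 5002 and 5688 on the primary arrays and 115, 175 and 93.0 on the MSC-1 arrays. On that probe set the MSC-1 values were above their array's median, and the log2 difference was 5.20 (SE 0.19, n = 3 per group). The suffix _s_at marks probes shared by more than 1 transcript and _x_at probes that may bind other transcripts, so these 2 kinds are less specific than the other 2 sets.

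Probe set 1421924_at of Slc2a3 read 1054, 1103 and 1288 on the primary arrays and 10.5, 16.6 and 1.80 on the MSC-1 arrays, a log2 difference of 5.54 (SE 0.22, n = 3 per group). Probe set 1427770_a_at read 472, 551 and 655 against 6.67, 4.30 and 4.95, a log2 difference of 4.74 (SE 0.16). Both were below the array median on all 3 MSC-1 arrays. Probe set 1455898_x_at read 2731, 3290 and 3593 against 28.6, 36.3 and 42.0, above the array median in both groups, with a log2 difference of 5.96 (SE 0.14). The 4 folds in the authors' deposited table ran from 57.3 to 81.3.

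Trf, the transferrin gene, was well above the array median in both groups and higher in the line. Its intensity was 376, 554 and 370 on the primary arrays and 4508, 3503 and 4337 on the MSC-1 arrays. The lowest MSC-1 value was 6.32 times the highest primary value. The log2 difference, primary minus MSC-1, was -3.22 (SE 0.17, n = 3 per group), and the authors' deposited table gives 9.52-fold higher in MSC-1 cells.

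Gdnf, the growth factor of spermatogonial stem cells, was above the array median in both groups and was also higher in the line. Its intensity was 48.7, 77.6 and 83.0 on the primary arrays and 269, 522 and 297 on the MSC-1 arrays. The lowest MSC-1 value was 3.24 times the highest primary value, and MSC-1 replicate 2 stood above the other two. The log2 difference was -2.11 (SE 0.26, n = 3 per group), and the authors' deposited table gives 4.76-fold higher in MSC-1 cells.

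Vim, the gene of the intermediate filament vimentin, which Sertoli cells share with mesenchymal and Schwann cells, was high in both groups. Its intensity was 985, 1504 and 1277 on the primary arrays and 5764, 6617 and 5543 on the MSC-1 arrays. The lowest MSC-1 value was 3.69 times the highest primary value. The log2 difference was -2.25 (SE 0.15, n = 3 per group), and the authors' deposited table gives 4.22-fold higher in MSC-1 cells.

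Of the 8 genes, Sox9, Trf, Gdnf, Vim and the leading Slc2a3 probe set were thus above the array median in MSC-1 cells. Aard, Cst12 and Defb19, with 2 further Slc2a3 probe sets, lay below it on all 3 MSC-1 arrays. No detection calls were used, so an intensity below the median is not shown to be background, nor one above it to be expressed. The size of a difference against low values depends on the constant added. For Aard the log2 difference was 8.11 with 1 added and 3.33 with 64 added, for Defb19 6.08 and 1.92, and for Cst12 6.74 and 4.27. For the Slc2a3 probe sets 1421924_at, 1427770_a_at and 1455898_x_at it was 4.04, 3.16 and 5.03 with 64 added, and 7.11, 6.48 and 6.46 with 1 added. The leading Slc2a3 probe set, 1437052_s_at, moved less, to 4.78 with 64 added and 5.36 with 1 added. The 3 genes that were higher in MSC-1 cells stood at -1.64 for Gdnf, -3.08 for Trf and -2.21 for Vim when 64 was added.

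**Figure D2:**
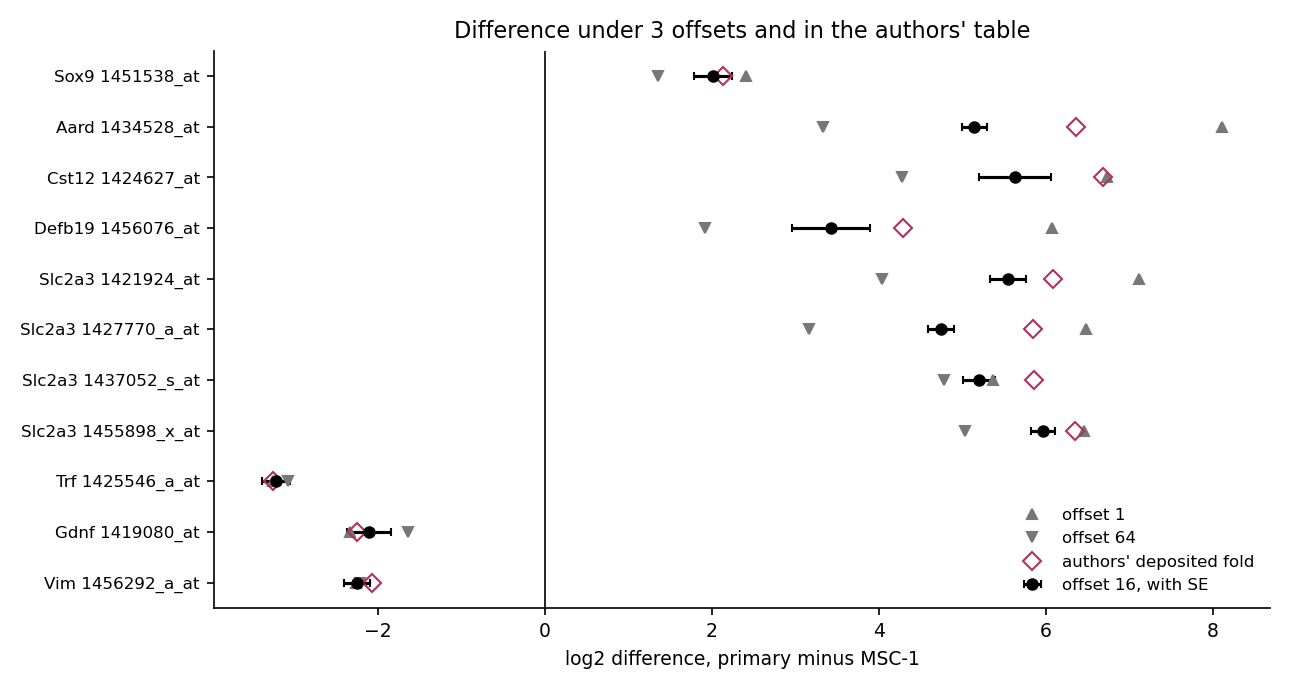
The log2 difference, primary minus MSC-1, of each of the 11 probe sets with 16 added to the intensities (black, bars are moderated SE, n = 3 per group), with 1 or 64 added (grey) and from the authors' deposited fold (open diamonds). The direction was the same in every case, while the size for Aard ranged from 3.33 to 8.11 and that for Vim from -2.27 to -2.08.

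Other genes of the Sertoli cell were looked up in 5 lists of fate factors, hormone axis genes, secreted proteins, metabolic genes and structural genes. Of 64 genes in these lists, 17 carry a symbol in the authors' deposited table, and of these 10 had the higher level in primary cells and 7 in the line. All 17 passed an adjusted p of 0.05 in limma's test, as did 40.9% of all probe sets, and since listing itself required a 4-fold difference nothing is read from that count. Their median log2 difference was 2.31, beside 2.07 over the 3198 probe sets of that table and -0.01 over all probe sets. The other 47 genes could not be named on the arrays from the files and are not shown to be unchanged.

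Among the fate factors, 2 of 13 were listed, Sox9 and Tcf21, a transcription factor of the embryonic gonad. Tcf21 read 263 ± 125 (SD, n = 3) in primary cells against 3.67 ± 1.95 in the line, a log2 difference of 3.74 (SE 0.29). Of 8 hormone axis genes, 3 were listed. Inha, the inhibin alpha subunit through which Sertoli cells restrain the pituitary, was higher in primary cells with a log2 difference of 4.01 (SE 0.14). Prkar2b, a regulatory subunit of the cyclic AMP dependent kinase, was higher in the line with a log2 difference of -2.15 (SE 0.12), and Thra, a thyroid hormone receptor gene, with one of -1.80 (SE 0.16).

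Of 19 genes in the list of secreted proteins, which also holds Aard, 7 were listed. Besides the 5 genes already given, Clu, the gene of the abundant Sertoli protein clusterin, read 4554 ± 985 (SD, n = 3) in primary cells against 493 ± 93.3 in the line, a log2 difference of 3.16 (SE 0.18). Ptgds, a prostaglandin D synthase gene, was on the side of Trf and Gdnf with a log2 difference of -2.92 (SE 0.33). Of 11 metabolic genes, Slc2a3 and Cyp26b1, an enzyme gene that degrades retinoic acid, were listed, the latter at -2.51 (SE 0.18). Of 13 structural genes, 3 were listed. Gja1, the gene of the gap junction protein connexin 43, stood at 5.09 (SE 0.26), with its 4 listed probe sets between 2.43 and 5.09. The cyclin D2 gene Ccnd2 stood at 2.31 (SE 0.28), with its 3 listed probe sets between 2.31 and 3.07. Both were higher in primary cells, opposite to Vim.

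Partners and paralogs of the 8 genes were sought in a list of 32, of which 3 were listed. Sox10, a close relative of Sox9 in the Schwann cell and melanocyte lineages, ran opposite to Sox9. It read 20.8, 6.89 and 11.9 on the primary arrays and 1569, 1652 and 1490 on the MSC-1 arrays. Its log2 difference was -5.79 (SE 0.18, n = 3 per group), with its 3 listed probe sets between 3.27 and 5.79 in size. Slc2a5, the gene of a fructose transporter of the same family as Slc2a3, was higher in primary cells like Slc2a3, with a log2 difference of 4.57 (SE 0.24). Lmna, a nuclear relative of vimentin, was higher in MSC-1 cells like Vim, at -2.40 (SE 0.23).

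**Figure D3:**
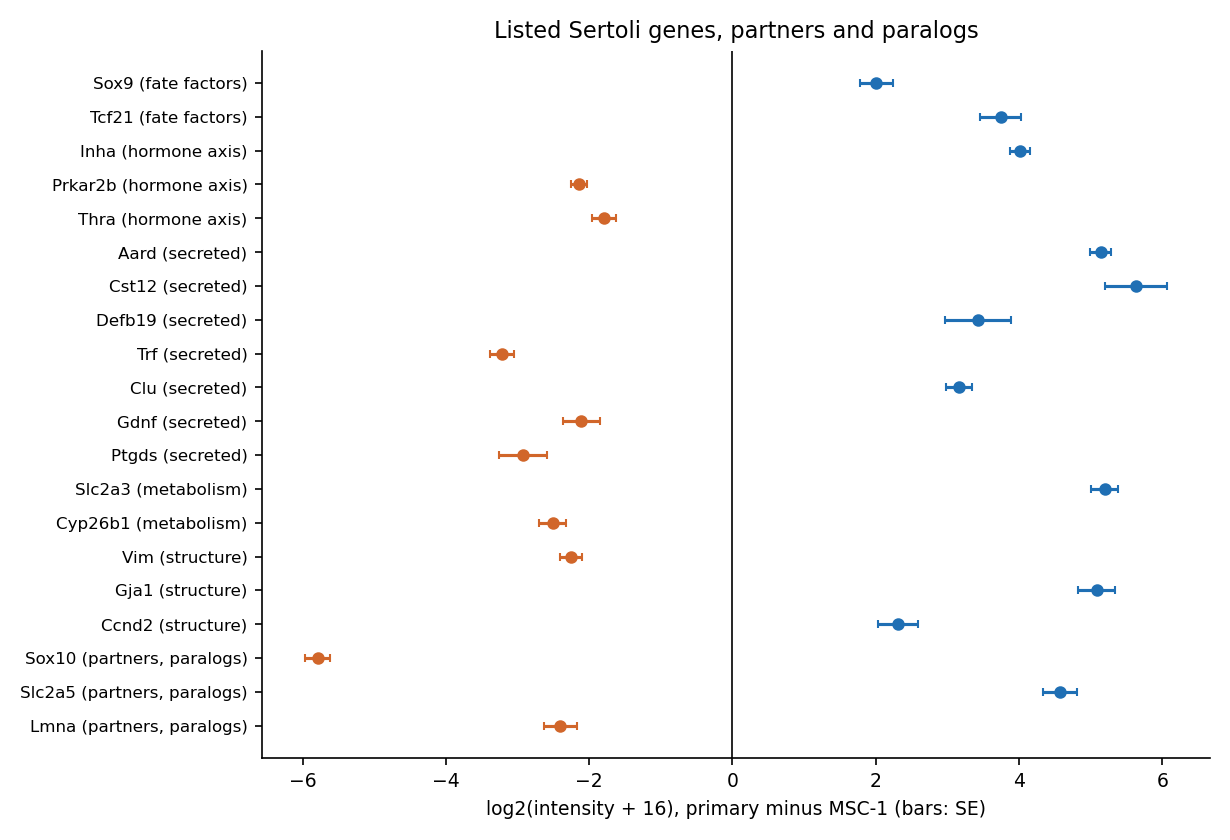
The log2 difference, primary minus MSC-1, with its moderated SE (n = 3 per group) for the 17 listed genes of the Sertoli lists and the 3 listed partners and paralogs, each by its probe set with the highest mean level. Secreted protein genes fall on both sides of 0, and Sox9 at 2.01 and Sox10 at -5.79 lie on opposite sides.

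Markers of other cells were read on the same arrays, as their listed members. Listing itself required a 4-fold difference, so nothing is read from their counts or from the gaps between their sums. Of the 3198 probe sets of the authors' deposited table, 1902 were higher in primary and 1296 in MSC-1 cells. Markers that were not listed could not be named on the arrays. Of 12 Schwann cell and neural crest markers, 10 were listed and all 10 were higher in MSC-1 cells, the side of Trf, Gdnf and Vim, with a summed intensity of 9494 to 13390 on the MSC-1 arrays and 348 to 657 on the primary arrays. Mbp, the myelin basic protein gene, had a log2 difference of -6.77 (SE 0.29), with its 3 listed probe sets between 2.43 and 6.77 in size. All 7 listed proliferation genes of 10 were higher in MSC-1 cells too, summing to 7947 to 8924 there and 864 to 1182 in primary cells. On the side of Sox9, Cst12, Defb19, Aard and Slc2a3, all 9 listed germ cell markers of 16 were higher in primary cells. Their sums were 5146 to 7323 there against 208 to 288 in the line. The 5 listed peritubular markers of 8 were also higher in primary cells, summing to 1752 to 3379 against 116 to 148, as were 3 of 10 macrophage and leukocyte markers and 1 of 7 Leydig cell markers, and no endothelial marker of 8 was listed. Whether these markers play a part in the differences of the 8 genes was not tested.

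The primary samples differed among themselves in these genes. Primary replicate 1 was the lowest primary sample for 7 of the 8 genes, each by its probe set with the highest mean level, and Trf was the exception, with replicate 3 slightly lower. Over all probe sets replicate 1 was the lowest for 38.0% and the highest for 38.1%. Among the 1902 probe sets of the authors' deposited table that were higher in primary cells it was the lowest for 67.9%. The gap was widest for Defb19 and Cst12, whose replicate 1 stood at 23.8% and 31.4% of the mean of replicates 2 and 3. Sox9 stood at 58.4%, Gdnf at 60.6% and Vim at 70.8% of that mean, and Aard, Slc2a3 (1437052_s_at) and Trf at 84.8%, 87.3% and 81.4%.

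Other listed genes of the Sertoli lists did the reverse, although how specific these genes are to Sertoli cells was not tested. For 8 of the 9 that are not among the 8 genes, replicate 1 was the highest primary sample, with a median log2 gap of 0.49 to the mean of replicates 2 and 3, against -0.53 for the 8 genes and -0.01 over all probe sets. Tcf21, at 1.03, and Gja1, at 0.92, led these genes, and Ccnd2, at -1.09, was the exception, below 0 like Cst12 and Defb19. Prkar2b, Thra, Ptgds and Cyp26b1, which were higher in the line, were among those highest in replicate 1. All 5 listed peritubular markers were highest in replicate 1, with a median gap of 0.99, and their summed intensity there was 3379, beside 1752 and 1800 in replicates 2 and 3. Of the 9 listed germ cell markers 8 were lowest in replicate 1, with a median gap of -0.23. Among the 10 listed Schwann cell and neural crest markers 6 were highest and 2 lowest in it, with a median gap of 0.17. The 3 listed macrophage and leukocyte markers had a median gap of -0.57, 2 being lowest and 1 highest in it. Each gap compares 1 array with 2, so it has no test. Whether the share of peritubular or other cells plays a part was not tested. Without primary replicate 1 the log2 difference was 2.24 for Sox9, 6.18 for Cst12, -1.92 for Gdnf and -2.09 for Vim, each in the direction found with it.

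**Figure D4:**
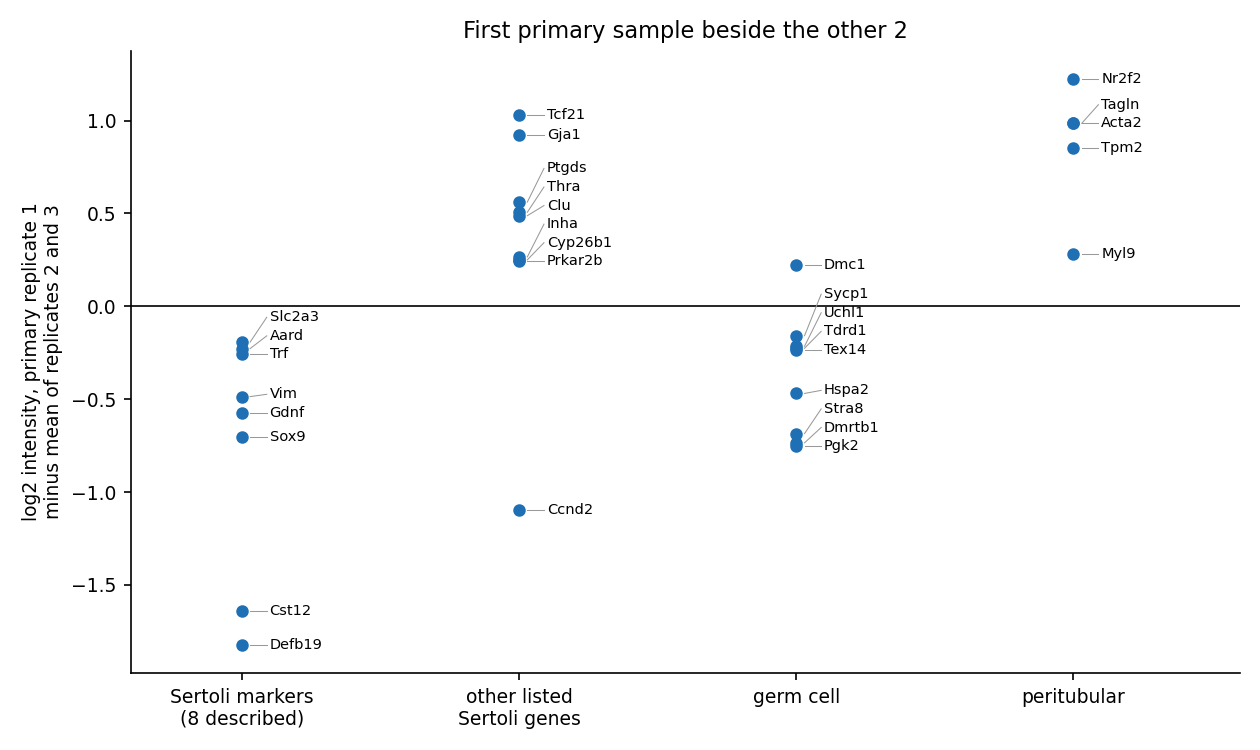
The log2(intensity + 16) of primary replicate 1 minus the mean of replicates 2 and 3, 1 point per gene, for the 8 described genes, the 9 other listed Sertoli genes and the listed germ cell and peritubular markers. All 8 described genes lie below 0, Defb19 and Cst12 lowest. All 5 peritubular markers and 8 of the 9 other genes of the Sertoli lists lie above it.

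By the SD of log2 values, the MSC-1 arrays were closer to one another for 8 of the 11 probe sets. This depends on the added constant, which narrows the spread of low values. The ratio of highest to lowest intensity was smaller in MSC-1 cells only for Sox9, Cst12, Trf and Vim. For Aard that ratio was 3.64 in MSC-1 and 1.27 in primary cells, and for Defb19 7.81 and 4.95. The Slc2a3 probe sets 1427770_a_at, at 1.55 and 1.39, and 1455898_x_at, at 1.47 and 1.32, also differed in this direction. The median SD of log2 values over the 11 probe sets was 0.19 in MSC-1 cells and 0.30 in primary cells, beside 0.16 and 0.19 over all probe sets. The primary SD was 1.08 for Defb19 and 0.96 for Cst12, and 0.14 for the leading Slc2a3 probe set, 1437052_s_at. In MSC-1 cells Gdnf had the widest spread by this SD, 0.49 on the log2 scale, through replicate 2. By the ratio of highest to lowest intensity the widest was the Slc2a3 probe set 1421924_at, at 9.19, beside 1.94 for Gdnf.

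The genes nearest to each member were found among the 2294 genes of the authors' deposited table compared, by the Euclidean distance of log2 values over the 6 arrays after each probe set was centred on its own mean. Sox9 was closest to Speer4cos at a distance of 0.12 and Jazf1 at 0.14, and Aard to Phf7 at 0.24 and Pebp4 at 0.25. Slc2a3 was closest to Tcam1 at 0.41 and 1700006J14Rik at 0.44, and Defb19 to Nptx2 at 0.45 and Cidea at 0.63. Cst12 had no gene as near, with Shcbp1l at 0.90 and Pbp2 at 0.96. Trf was closest to Sema3b at 0.20 and Mki67 at 0.25, and Gdnf to C030027H14Rik at 0.27 and Fmod at 0.43. Vim was closest to Ccsap at 0.26 and Anln at 0.29. All these genes were listed for a 4-fold group difference, so the distance depends largely on how alike genes are in that difference. Trf stood at -3.22, beside -3.22 for Sema3b and -3.11 for Mki67. Nearness is not shown to be shared regulation.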

How the data were processed

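Total RNA (10 ug per sample) was labelled as biotinylated cRNA by the Affymetrix procedure, per the labels' protocols. The authors deposited a table of intensity per probe set and array on a linear scale, with 45101 probe sets and 6 arrays. Per the submitters' processing notes the software GCOS was involved, in a role they leave unnamed. Summarisation and scaling of the intensities are not given in the sources used here. They also deposited a signed fold per probe set (a score with no unit, size at least 4, positive for 1902 and negative for 1296). How those folds were averaged is not known, and their sizes differ from ratios of the deposited intensities.

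Intensities were used as deposited, 64 control probe sets were left out, 16 was added and log2 taken. limma 3.58.1 in R 4.3.3 (lmFit, eBayes with trend) fitted primary against MSC-1 over 45037 probe sets, with Benjamini-Hochberg adjustment over all of them, and was tested on simulated data. Probe sets are named only where the authors' deposited table gives 1 symbol (3069 of its 3198; 79 have several and 50 none), updated through the RefSeq table of GRCm38.p6 to 2295 genes. A list gene stands by its probe set with the highest mean level. Named are the 8 members with all listed probe sets and up to 4 list genes per direction and list. Also named are 2 nearest genes per member and up to 2 markers per marker list. The members and lists were chosen with earlier results of these data known, and the comparison of primary replicate 1 with the others and the motifs TATAAA and GGGCGG were added after the data were seen. One gene of the hormone axis list is not reported here. Same-numbered samples of the groups had deviations correlated at -0.04, -0.06 and 0.03, so the numbers were not taken as pairs. Alternatives were other added constants, quantile normalization, median centring, a filter on dim probe sets, no trend, the replicate number as a block, other probe sets per gene and leaving out each sample. Python 3.11.15, pandas 2.3.3, numpy 2.4.6 and matplotlib 3.10.9 were used.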

Additional observations from a re-analysis of the deposited data

How the results depend on the processing

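The direction of all 11 probe sets held under every alternative run, and all 11 stayed past the threshold. The counts of listed Sertoli genes past it stayed at 10 higher in primary and 7 in MSC-1 cells under each alternative. Both sets were listed at 4-fold on this same contrast, so this stability is no support for them. Over all probe sets, 8676 were called higher in primary and 9742 in MSC-1 cells. Leaving out 1 sample at a time gave 7271 to 9111 and 7787 to 10276, and taking the replicate number as a block, although the samples share only a number, gave 8186 and 9018 calls. Median centring, which moved the median log2 difference of all probe sets from -0.01 to -0.18, gave 7009 and 13028, so the share called higher in primary cells went from 47.1% to 35.0%. The added constant moved 7 of the 11 differences by more than their replicate SD when it was 1 and 9 when it was 64. With both constants this held for Sox9, Aard, Cst12, Defb19 and 3 of the 4 Slc2a3 probe sets, and with 64 alone also for Gdnf and the Slc2a3 probe set 1437052_s_at.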
